A study of Gallus gallus with 21 samples.

Results

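Retinas of chickens that had looked through a -10 D lens for 6 days were compared with retinas taken after 3 days of the same lens, by RNA sequencing. The 2 groups hold 7 libraries each, 14 of the 21 libraries of the series, and were chosen by the days of lens wear in the sample labels. The other 7 libraries come from 1 day of lens wear and were not used in the test. All birds were wild-type White Leghorns. Lenses were fitted at the age of 3 days, so the birds were 6 days old in the first group and 9 days old in the second. Longer lens wear therefore came with greater age, and since no retina without a lens was analysed here, the parts of lens and age cannot be told apart. The labels do not say whether the libraries of a group came from separate birds, and the p-values therefore measure only the spread between these libraries.

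A minus lens throws the image behind the retina, and a young chick eye answers by growing longer until the image is sharp again. The signal for this growth starts in the retina, where photoreceptors turn light into an electrical response and pass it to bipolar, horizontal and amacrine cells. In a cone or rod, light acts on an opsin, which activates transducin and a phosphodiesterase, and the fall in cyclic GMP closes a cation channel. Guanylate cyclase and its activating proteins then restore cyclic GMP. The chick retina is rich in cones and has no blood vessels of its own. Photoreceptors renew their outer segments throughout life, which places heavy demands on protein folding, sugar use and lipid supply.

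Expression was measured as deposited CPM, read counts scaled to a common library total, a scale that is not corrected for gene length. An estimated 30.8 to 41.4 M reads lay behind each 3-day library and 34.0 to 42.6 M behind each 6-day library. Of the 18631 genes listed, 11083 averaged 1 CPM or more over the 14 libraries and were tested with limma on log2(CPM + 1). Transcripts of the W chromosome, which is carried by female birds, were used as a covariate. HINTW, a W-linked gene, stood at 117 to 147 CPM in 1 library of day 3 and 5 libraries of day 6 while the rest held only 0.0243 to 0.598 CPM. The single 3-day library with W transcripts (replicate 4) therefore carries much weight. Genes of the small chromosomes 21 to 28 stood higher relative to chromosomes 1 to 5 on day 6, by -0.03 to 0.13 on the log2 scale against -0.11 to 0.09 on day 3. Replicate 6 was the highest library of day 3 and replicate 7 the highest of day 6 in this measure.

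At a Benjamini-Hochberg adjusted p under 0.05, 1648 genes were higher on day 6, 14.9% of those tested, and 233 were lower, 2.10%, together 1881 or 17.0%. At an unadjusted p under 0.05 there were 3618 (32.6%). The median log2 change of all tested genes was 0.09. Listed genes made up 30.3 to 32.2% of the CPM scale on day 3 and 31.7 to 33.3% on day 6. When libraries were instead scaled by median of ratios, which sets the typical gene to no change, 707 genes were higher (6.38%) and 603 lower (5.44%). Without the W covariate 2249 genes were higher (20.3%) and 482 lower (4.35%). The balance between rise and fall therefore depends on the scale, and each gene is given with that in view. Values of the 6-day libraries lay above all 3-day values for 559 genes (5.04%) and below all of them for 75 (0.677%). The count of higher genes was 638 without replicate 4 of day 3 and 523 without replicate 7 of day 6. The count of lower genes was 145 and 71 without those libraries, and 112 without replicate 3 of day 6. With the small-chromosome level as a further covariate, a fit chosen after the data were seen, 74 genes were higher (0.668%) and 15 lower (0.135%). Of the 1881 called genes 78 stayed called, and the median ratio of their changes to those of the first fit was 0.73 over all 1881. Their direction was kept by 1880, but they had been called in the same libraries, so this is no separate support. A set of 346 genes (3.12%) passed with and without the W covariate, with median-of-ratios scaling and without each library in turn, 314 of them higher (2.83%) and 32 lower (0.289%). Of these, 61 (0.550%) passed with the small-chromosome covariate too, 57 higher (0.514%) and 4 lower (0.0361%). Of the 129 called genes named below, 57 lost their call without replicate 4 of day 3, 50 without replicate 7 of day 6 and 24 without replicate 3 of day 6, and at most 3 without any other single library. Of the same genes 106 lost it with the small-chromosome covariate, 108 in the libraries without W transcripts, 125 in those with them, 26 with median-of-ratios scaling and 14 without the W covariate.

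Most cone genes were called higher in the fit with the W covariate. Of 16 tested genes of cone phototransduction, 12 were higher on day 6 and 0 lower, where 14.9% of all genes were higher. Their median log2 change was 0.41 against 0.09 for all genes. Without the covariate 7 were higher and 1 lower. The summed CPM of the list overlapped between days, at 1936 to 2864 on day 3 and 2503 to 3108 on day 6. OPN1LW, the opsin of red-sensitive cones, measured 67.8, 125 and 251 CPM (lowest, median and highest) on day 3 and 151, 209 and 357 CPM on day 6. Its groups overlapped, since replicate 6 of day 3 stood above most 6-day libraries, while all 7 libraries of day 6 lay above the day 3 mean. The log2 change was 1.15 ± 0.29 (SE, adjusted p = 0.0173), a 2.22-fold rise that did not pass without replicate 4 of day 3 or replicate 7 of day 6 (highest adjusted p = 0.11). OPN1MSW, the green-sensitive cone opsin on chromosome 26 (4556844 to 4562455 in GRCg6a), ran from 36.9 to 58.5 CPM with a median of 47.6 on day 3. On day 6 it ran from 58.9 to 128 CPM with a median of 74.0, above every 3-day library, a log2 change of 0.87 ± 0.18 (adjusted p = 0.00658, and 0.057 without replicate 7 of day 6). Opsins of blue and violet cones, OPN2SW and OPN1SW, had a mean under 1 CPM and were not tested. OPN1SW ranged from 0.224 to 0.846 CPM on day 3 and from 0.783 to 2.21 CPM on day 6. OPN2SW ranged from 0.105 to 0.681 CPM on day 3 and from 0.159 to 0.931 CPM on day 6.

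The steps that restore cyclic GMP rose with the opsins. GUCA1A and GUCA1B encode guanylate cyclase activating proteins, which respond to falling calcium after a flash, and lie next to each other on chromosome 26 (3184817 to 3189220 and 3177857 to 3181393). GUCA1A measured 31.5, 41.0 and 44.2 CPM on day 3 and 55.6, 66.8 and 78.7 CPM on day 6. GUCA1B measured 27.7, 31.4 and 34.8 CPM on day 3 and 38.4, 43.7 and 46.5 CPM on day 6. In both genes every 6-day library exceeded every 3-day library. The log2 changes were 0.89 ± 0.10 (adjusted p = 0.000498) and 0.46 ± 0.07 (adjusted p = 0.00221), and both passed without each library in turn and with the small-chromosome covariate. GUCY2F, a photoreceptor guanylate cyclase, rose by 0.58 ± 0.15 from a median of 7.16 to 10.5 CPM (adjusted p = 0.0175), and lost its call without replicate 4 of day 3 or replicate 7 of day 6.

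Other cone calls were more dependent on single libraries and on the covariate. ARR3, cone arrestin, which binds the activated opsin, measured 76.6, 148 and 213 CPM on day 3 and 148, 180 and 232 CPM on day 6. The groups overlapped widely, and the change of 0.76 ± 0.16 (adjusted p = 0.00716) fell to 0.41 (adjusted p = 0.10) without the W covariate. RGS9, which speeds the shut-off of transducin, went from a median of 93.6 to 97.9 CPM, with a change of 0.44 ± 0.09 (adjusted p = 0.00547) that fell to 0.24 (adjusted p = 0.086) without the covariate. PDE6H, the inhibitory subunit of the cone phosphodiesterase, went from 570 to 618 CPM, with 0.39 ± 0.08 (adjusted p = 0.00816) falling to 0.22 (adjusted p = 0.079). The remaining calls were the channel subunits CNGA3 (0.49 ± 0.10) and CNGB3 (0.33 ± 0.08), the exchanger gene SLC24A2 (0.26 ± 0.07), which dropped to 0.14 (adjusted p = 0.13) without the covariate, and the cone transducin GNAT2 (0.38 ± 0.12, and 0.28 with adjusted p = 0.062 without it). ARR3, RGS9, PDE6H, CNGA3, CNGB3, SLC24A2 and GNAT2 all lost their calls without replicate 4 of day 3.

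Not every cone gene moved upward. PDE6C, the catalytic subunit of the cone phosphodiesterase, measured 210, 250 and 279 CPM on day 3 and 168, 201 and 207 CPM on day 6. All 6-day libraries lay below all 3-day libraries, yet the log2 change with the W covariate was -0.22 ± 0.08 and did not pass (adjusted p = 0.0674). It passed at -0.30 (adjusted p = 0.0064) without the covariate and at -0.32 (adjusted p = 0.025) with median-of-ratios scaling. GRK7, the cone opsin kinase (0.26 ± 0.10), RGS9BP, the anchor of RGS9 (0.13 ± 0.08), and GNGT2, a transducin subunit (0.01 ± 0.09), did not pass. With median-of-ratios scaling 9 cone genes were higher and PDE6C lower, and without the W covariate 7 were higher and PDE6C lower. Without replicate 4 of day 3, 3 cone genes were called higher, and with the small-chromosome covariate 3 were: GUCA1A, GUCA1B and CNGA3. OPN1LW changed by 0.24 ± 0.15 in that last fit (adjusted p = 0.42).

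**Figure D1:**
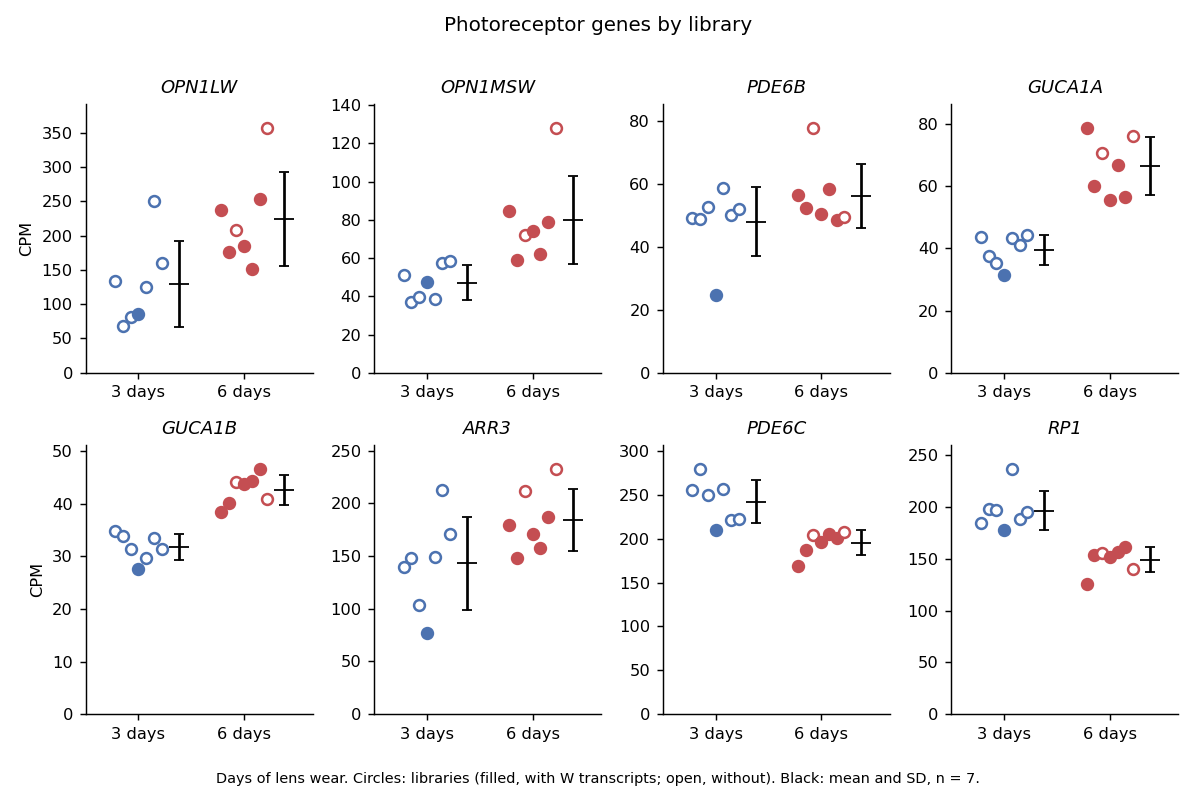
CPM of 8 photoreceptor genes in the 7 libraries of 3 days and the 7 of 6 days of lens wear, one circle per library (filled, with W transcripts; open, without), with the mean and SD in black. GUCA1A and GUCA1B separate the days completely upward, PDE6C and RP1 completely downward, and OPN1LW, ARR3 and PDE6B overlap.

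Rod genes rose in part. The rod list held 10 tested genes, of which 5 were higher and 0 lower, with a median log2 change of 0.32. Of all genes 14.9% were higher and 2.10% lower, with a median of 0.09. The called members included GNB1, the transducin beta subunit (0.30 ± 0.09), SAG, rod arrestin (0.41 ± 0.12), CNGB1, a rod channel subunit (0.49 ± 0.14), and PDE6B, a catalytic subunit of the rod phosphodiesterase (0.55 ± 0.14). PDE6B did not pass without the W covariate (0.25, adjusted p = 0.27), and CPM of it in replicate 4 of day 3 was 24.6 against 49.0 or more in the other 3-day libraries. GNAT1, the rod transducin alpha subunit, had medians of 15.5 and 20.3 CPM and did not pass (0.33 ± 0.17). With median-of-ratios scaling 1 of 10 rod genes was called higher, where 6.38% of all genes were. The rod count was 1 without replicate 4 of day 3, 3 without replicate 3 of day 6 and 2 without replicate 7 of day 6.

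Outer segment and cilium genes moved in both directions. RP1L1 and RP1 encode related proteins of the photoreceptor axoneme, the microtubule core of the outer segment, and changed in opposite ways. RP1L1 measured 135, 163 and 173 CPM on day 3 and 203, 210 and 241 CPM on day 6, a log2 change of 0.54 ± 0.07 (adjusted p = 0.000841). RP1 (chromosome 2, 110575283 to 110586239) measured 177, 195 and 236 CPM on day 3 and 125, 154 and 161 CPM on day 6, a change of -0.37 ± 0.09 (adjusted p = 0.0117). Neither gene's groups overlapped, and the fall of RP1 did not pass without replicate 7 of day 6 (adjusted p = 0.087). AIPL1, a chaperone needed for phosphodiesterase assembly, rose without overlap from a median of 7.98 to 14.1 CPM (0.93 ± 0.13, adjusted p = 0.00152). MAK, a kinase of the photoreceptor cilium, rose from 85.8 to 107 CPM (0.43 ± 0.08, adjusted p = 0.00363). CDHR1, a cadherin of outer segment discs (0.33 ± 0.08, adjusted p = 0.0115), and UNC119, which carries transducin (0.28 ± 0.07, adjusted p = 0.0153), were the other rises, the first lost without replicate 4 of day 3 and the second without replicate 3 or 7 of day 6. In all, 5 of 19 structural genes were higher and 1 lower, against 14.9% and 2.10% of all genes. Their median was 0.15, against 0.09 for all genes. The disc rim genes PRPH2 (0.13 ± 0.07) and ROM1 (-0.06 ± 0.08) did not pass.

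Among 17 transcription factors of photoreceptors, 3 were called higher and 0 lower, a share of 17.6% that lies near the 14.9% of all genes. Their median log2 change was 0.34, though, against 0.09 for all genes. At an unadjusted p under 0.05 in limma 12 were higher and 1 lower, where 32.6% of all genes passed in either direction. With the small-chromosome covariate the median was 0.05, against 0.04 for all genes. PRDM1, which in mice steers precursors to the photoreceptor fate, measured 18.1, 24.8 and 30.1 CPM on day 3 and 32.6, 40.2 and 44.0 CPM on day 6. The 6-day libraries were all higher, and the log2 change was 0.74 ± 0.14 (adjusted p = 0.0042). MAFA rose without overlap from a median of 5.22 to 8.16 CPM (0.59 ± 0.10, adjusted p = 0.00353), and NR2F1 was the third call (0.42 ± 0.14, adjusted p = 0.0451). THRB, a thyroid hormone receptor that mice need for their M-cone opsin, had medians of 132 and 130 CPM and did not pass (0.02 ± 0.06), nor did RXRG, a retinoid receptor of cones (0.52 ± 0.17, adjusted p = 0.0519). Without replicate 6 of day 3 the count of higher factors was 7, and 1 was lower, and without the W covariate the counts were 6 and 1. The higher count was 2 without any 1 of replicates 2, 4 and 5 of day 3 and 5, 6 and 7 of day 6. With median-of-ratios scaling 2 factors were higher and 1 lower. At the photoreceptor synapse CABP4, a calcium sensor of the ribbon, rose from a median of 12.4 to 23.1 CPM (0.77 ± 0.14, adjusted p = 0.00391). CPLX4, a complexin of ribbon synapses, rose by 0.32 ± 0.08 (adjusted p = 0.0176) and did not pass without the W covariate (0.18, adjusted p = 0.12). DNM1, which acts in vesicle retrieval, also rose (0.39 ± 0.09, adjusted p = 0.00782), a call that was lost without replicate 7 of day 6 (adjusted p = 0.062). The synaptic list as a whole gave 6 of 37 higher (16.2%) and 0 lower, 2 higher without replicate 4 of day 3 or replicate 7 of day 6, and 3 higher and 1 lower with median-of-ratios scaling.

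Many molecular chaperones rose, though about as many of those tested did not pass. These proteins fold new and damaged chains, in the cytosol through the Hsp70 and Hsp90 systems and in the endoplasmic reticulum through a separate set. Of 28 tested genes of the cytosolic chaperone list 15 were higher on day 6 and 0 lower, with a median of 0.32. Among all genes 14.9% were higher and 2.10% lower. The list also holds co-chaperones and heat shock factors. The summed CPM of the list ranged from 1025 to 1296 on day 3 and from 1525 to 2045 on day 6, without overlap. HSPA8, the constitutive Hsp70 (chromosome 24, 3102900 to 3107843), measured 165, 269 and 288 CPM on day 3 and 396, 508 and 569 CPM on day 6. HSP90AA1, an Hsp90 (chromosome 5, 49679064 to 49684242), measured 229, 268 and 358 CPM on day 3 and 412, 553 and 675 CPM on day 6. Both separated the days completely, with log2 changes of 1.00 ± 0.15 (adjusted p = 0.00181) and 0.87 ± 0.14 (adjusted p = 0.00314).

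Partners of Hsp70 and Hsp90 rose alongside. BAG3, a co-chaperone that links Hsp70 to autophagy, went from 2.57, 4.06 and 5.59 CPM to 9.61, 10.2 and 11.6 CPM. Its log2 change of 1.22 ± 0.13 (adjusted p = 0.000407) is a 2.32-fold rise, and it was 1.04 (adjusted p = 0.031) with the small-chromosome covariate. DNAJA1, an Hsp40 on chromosome Z (70798137 to 70805869), went from 10.8, 13.8 and 20.1 CPM to 21.6, 26.6 and 32.7 CPM (1.06 ± 0.14, adjusted p = 0.000841). HSPA2, a further Hsp70, rose by 0.97 ± 0.13 (adjusted p = 0.00134) and AHSA1, which activates the Hsp90 ATPase, by 0.65 ± 0.08 (adjusted p = 0.000793). HSPA4 (0.56 ± 0.08), HSPA4L (0.37 ± 0.07) and HSPH1 (1.00 ± 0.22), exchange factors of Hsp70, and the Hsp40 DNAJA4 (0.65 ± 0.11) passed as well, HSPH1 not without replicate 4 of day 3 (adjusted p = 0.10). HSP90AB1, the close relative of HSP90AA1, did not follow, with medians of 18.6 and 16.9 CPM and a change of -0.05 ± 0.07. HSF1, one of the heat shock factors on the list, had medians of 1.37 and 1.56 CPM and did not pass (0.09 ± 0.10). The sources used here do not say how reads shared by such related genes were counted.

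The cytosolic chaperone count was 13 of 28 higher and 1 lower with median-of-ratios scaling, where 6.38% of all genes were higher and 5.44% lower. It was 12 to 16 higher without each library in turn. With the small-chromosome covariate 7 were higher, among them HSP90AA1 (0.99, adjusted p = 0.037) and DNAJA1 (0.94, adjusted p = 0.037), whereas HSPA8 did not pass (0.78, adjusted p = 0.055). FKBP4, an Hsp90 partner of steroid receptors, rose by 0.54 ± 0.10 (adjusted p = 0.00432). On day 1, which took no part in this test, HSPA8 ranged from 151 to 563 CPM and HSP90AA1 from 214 to 600 CPM, so single libraries of that day reached both the 3-day and the 6-day levels.

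**Figure D2:**
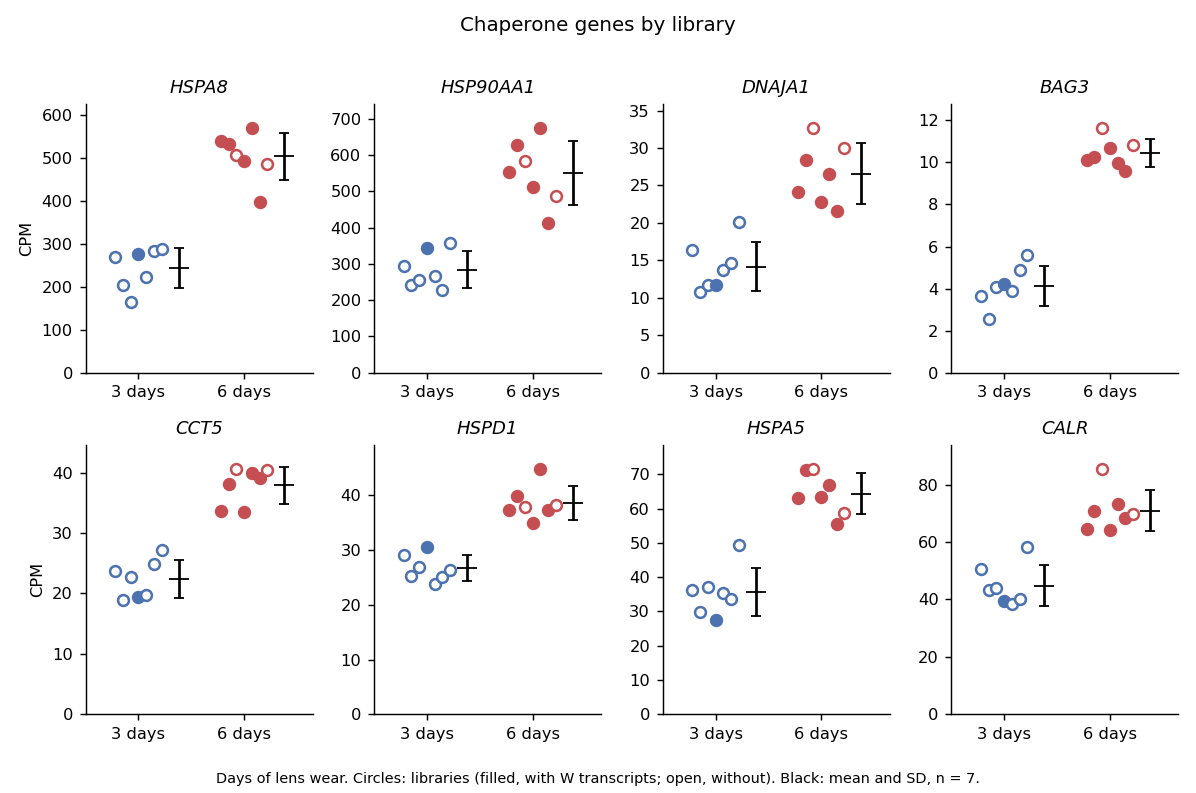
CPM of 8 chaperone genes of the cytosol (HSPA8, HSP90AA1, DNAJA1, BAG3, CCT5), mitochondria (HSPD1) and endoplasmic reticulum (HSPA5, CALR) in each library after 3 and 6 days of lens wear, drawn as circles (filled, with W transcripts), with the mean and SD in black. All 6-day libraries lie above all 3-day libraries in each of the 8 genes, as in 5.04% of all tested genes. The same held for 11 of 28 cytosolic, 4 of 12 chaperonin and prefoldin, 3 of 9 mitochondrial and 8 of 26 endoplasmic reticulum genes. HSP90AB1, TCP1 and HSPE1, which did not pass, are not drawn.

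The chaperonin TRiC is a barrel of related subunits that folds actin and tubulin. Of it and its partner prefoldin 7 of 12 tested genes were higher and 0 lower, with a median of 0.39. Among all genes 14.9% were higher and 2.10% lower. CCT5 measured 18.9, 22.8 and 27.2 CPM on day 3 and 33.5, 39.1 and 40.5 CPM on day 6 (0.84 ± 0.09, adjusted p = 0.000513). CCT2 (0.50 ± 0.07, adjusted p = 0.00162) and CCT4 (0.46 ± 0.08, adjusted p = 0.00309) also rose without overlap. CCT3 rose by 0.63 ± 0.11 (adjusted p = 0.00381), while TCP1, the founding subunit, did not pass (0.16 ± 0.06). The count was 6 of 12 with median-of-ratios scaling, where 6.38% of all genes were higher. In mitochondria HSPD1, the chaperonin Hsp60, rose from a median of 26.4 to 37.9 CPM (0.46 ± 0.08, adjusted p = 0.00314), and its lid HSPE1, with medians of 7.28 and 7.56 CPM, did not pass (0.01 ± 0.09). HSPA9, the mitochondrial Hsp70, rose without overlap (0.22 ± 0.06, adjusted p = 0.028). The mitochondrial list gave 4 of 9 higher and 0 lower, with a median of 0.23. It gave 2 without replicate 4 of day 3, 2 without replicate 3 of day 6 and 1 without replicate 7 of day 6. With median-of-ratios scaling it gave 1 of 9, against 6.38% of all genes.

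In the endoplasmic reticulum 13 of 26 tested chaperones and stress genes were higher and 0 lower, with a median of 0.24. Among all genes 14.9% were higher and 2.10% lower. HSPA5, the Hsp70 of this compartment known as BiP (chromosome 17, 9890854 to 9894907), measured 27.5, 35.5 and 49.3 CPM on day 3 and 55.6, 63.5 and 71.5 CPM on day 6. CALR, calreticulin, which binds newly made glycoproteins, measured 38.3, 43.4 and 58.2 CPM on day 3 and 64.2, 69.7 and 85.3 CPM on day 6. Neither gene overlapped between days, with log2 changes of 0.95 ± 0.12 (adjusted p = 0.000852) and 0.76 ± 0.10 (adjusted p = 0.00125). PDIA6, a disulphide isomerase (0.61 ± 0.09, adjusted p = 0.00159), HYOU1 (0.41 ± 0.08, adjusted p = 0.00476) and HSP90B1, the local Hsp90 (0.57 ± 0.12, adjusted p = 0.00813), rose as well. So did 2 transcription factors of the stress response, XBP1 (0.44 ± 0.11, adjusted p = 0.013) and ATF4 (0.33 ± 0.08, adjusted p = 0.0134). With median-of-ratios scaling 8 of 26 were higher and 1 lower, where 6.38% of all genes were higher and 5.44% lower. The count was 7 higher without replicate 4 of day 3, where HSP90B1 (adjusted p = 0.055) and XBP1 (adjusted p = 0.10) were lost. ATF4 was lost without replicate 7 of day 6 (adjusted p = 0.11). HSPA5, CALR and PDIA6 also passed with the small-chromosome covariate, at 0.96, 0.82 and 0.52.

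**Figure D3:**
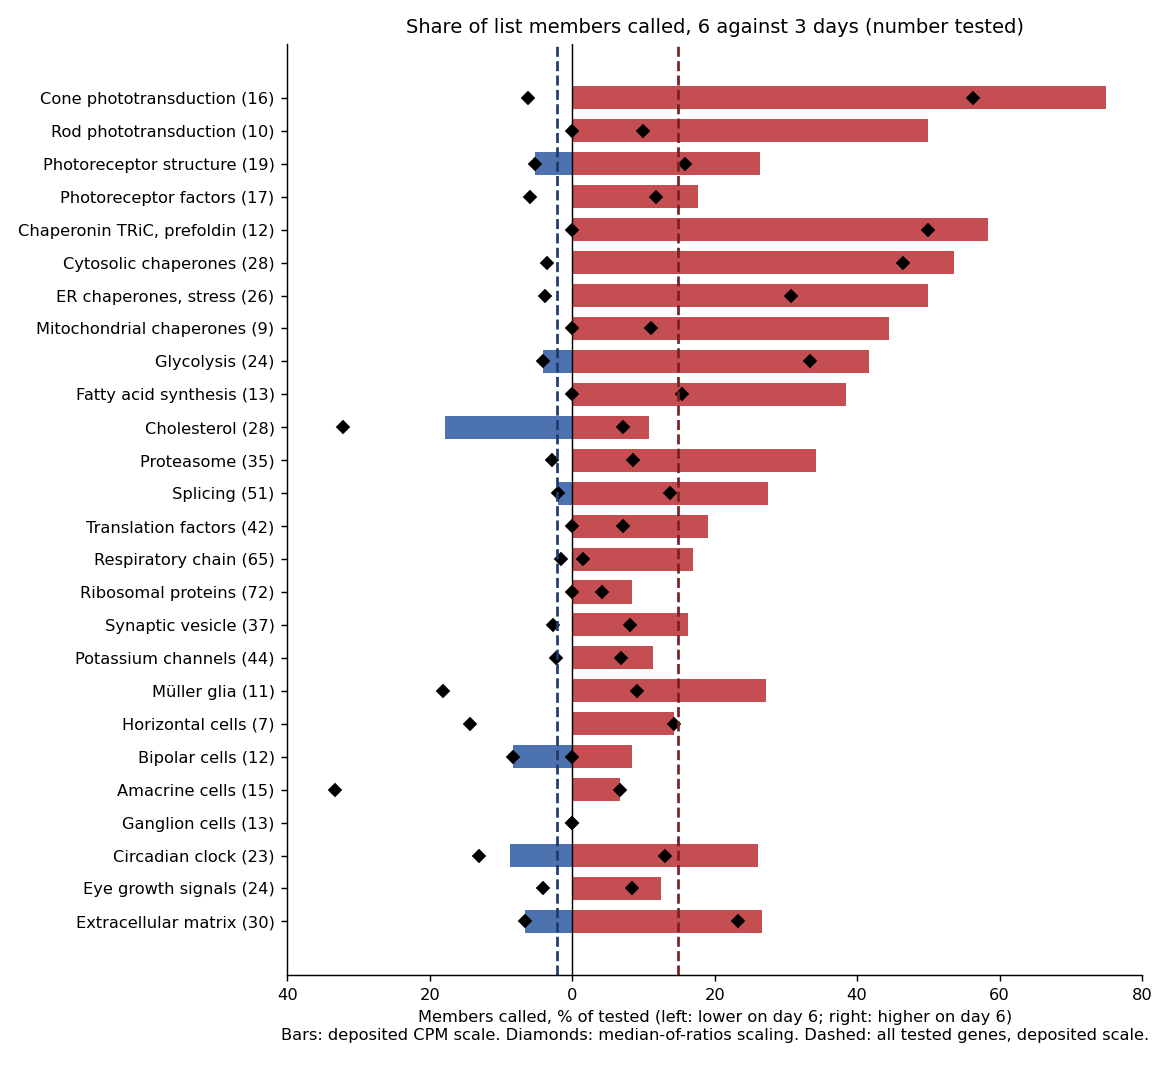
Share of the tested members of 26 gene lists that passed at an adjusted p under 0.05, to the right where higher and to the left where lower on day 6, with the number tested in brackets. Bars are the deposited CPM scale, diamonds median-of-ratios scaling, and dashed lines the share of all tested genes, 14.9% higher and 2.10% lower.

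Genes that bring glucose into the cell and into glycolysis rose. The retina burns much of its sugar to lactate even with oxygen at hand. Of 24 tested genes of glycolysis, its regulators and glucose and lactate transport, 10 were higher and 1 lower, with a median of 0.24. Of all genes 14.9% were higher and 2.10% lower. HK2, a hexokinase of glycolysis, lies on chromosome 22 (4050924 to 4066881). It measured 70.7, 84.2 and 135 CPM on day 3 and 116, 163 and 186 CPM on day 6. Replicate 7 of day 3 was the sole library of its group to reach the 6-day range, and the log2 change was 0.85 ± 0.16 (adjusted p = 0.0042). ALDOC, aldolase C, rose without overlap from a median of 231 to 337 CPM (0.53 ± 0.11, adjusted p = 0.00749). HK1 (0.32 ± 0.07), PGK1 (0.32 ± 0.07) and PFKFB3, a regulator of phosphofructokinase (0.47 ± 0.11), rose without overlap too, and the glucose transporter SLC2A1 rose by 0.52 ± 0.14. PKM, pyruvate kinase, rose by 0.33 ± 0.09. Of the later enzymes LDHA had medians of 834 and 853 CPM (0.04 ± 0.09) and GAPDH, an enzyme of the middle of the pathway, 746 and 727 CPM (0.02 ± 0.11), and neither passed.

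PDK4, a mitochondrial kinase that inhibits pyruvate dehydrogenase, was the member of the glycolysis list that fell. It went from 30.1, 39.4 and 45.1 CPM to 19.7, 27.5 and 41.4 CPM (-0.65 ± 0.16, adjusted p = 0.0167). Its groups overlapped, and the call was lost without replicate 4 of day 3 or replicate 7 of day 6. So were those of PGK1, PKM and SLC2A1, while HK1 was lost without the latter and PFKFB3 without the former. The list gave 8 of 24 higher and 1 lower with median-of-ratios scaling, where 6.38% of all genes were higher and 5.44% lower. It gave 4 higher and 0 lower without replicate 4 of day 3, 3 and 0 without replicate 7 of day 6, and 0 and 0 with the small-chromosome covariate.

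Among cholesterol genes falls outnumbered rises. Of 28 tested genes for sterol synthesis and transport 5 were lower and 3 higher, with a median of -0.11, where 2.10% of all genes were lower. HMGCS1, an early enzyme of the mevalonate pathway (chromosome Z, 13648499 to 13665261), measured 87.3, 105 and 142 CPM on day 3 and 66.2, 74.8 and 80.5 CPM on day 6. IDI1, a later enzyme of that pathway, measured 31.7, 33.7 and 40.0 CPM on day 3 and 23.0, 27.3 and 30.1 CPM on day 6. INSIG1, which holds back the SREBP factors when sterols are high and is itself one of their targets in mammals, measured 37.6, 47.7 and 79.6 CPM on day 3 and 30.3, 33.6 and 35.5 CPM on day 6. None of these 3 genes overlapped between days. They fell by 0.43 ± 0.11 (adjusted p = 0.0167), 0.33 ± 0.08 (adjusted p = 0.0155) and 0.54 ± 0.15 (adjusted p = 0.0247) on the log2 scale. Each lost its call without replicate 3 or replicate 7 of day 6, and IDI1 and INSIG1 also without replicate 4 of day 3 (highest adjusted p = 0.098, 0.081 and 0.097).

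Both sterol exporters on the list fell as well. ABCA1 (chromosome Z, 54811100 to 54902449) measured 11.6, 14.5 and 16.9 CPM on day 3 and 7.73, 8.83 and 9.55 CPM on day 6, without overlap. Its log2 change of -0.61 ± 0.09 (adjusted p = 0.00181) passed without each library in turn and with the small-chromosome covariate (-0.58, adjusted p = 0.046). ABCG1 went from a median of 284 to 241 CPM (-0.28 ± 0.07, adjusted p = 0.0187), with the call lost without any 1 of those 3 libraries. Regulators were the genes that rose: NR1H3, the sterol receptor that in mammals drives both exporters (0.42 ± 0.09, adjusted p = 0.0101), SCAP, the escort of the sterol regulatory factors (0.56 ± 0.14, adjusted p = 0.0146), and SREBF2, such a factor (0.52 ± 0.16, adjusted p = 0.0349). Without the W covariate SCAP changed by 0.33 (adjusted p = 0.092) and SREBF2 by 0.32 (adjusted p = 0.12), and neither passed. The list gave 9 lower and 2 higher with median-of-ratios scaling, 11 and 2 without the W covariate, and 1 and 0 with the small-chromosome covariate. Lower calls numbered 2 without replicate 4 of day 3, 1 without replicate 3 of day 6 and 1 without replicate 7 of day 6. Higher calls numbered 0 without replicate 4 of day 3, 5 without replicate 6 of day 3 and 1 without replicate 7 of day 6.

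In fatty acid synthesis 5 of 13 tested genes were higher and 0 lower, with a median of 0.22. The shares of all genes were 14.9% higher and 2.10% lower. FASN, fatty acid synthase, went from 107, 126 and 140 CPM to 154, 160 and 172 CPM without overlap (0.43 ± 0.07, adjusted p = 0.00313). ACLY, which makes its acetyl units from citrate, rose from a median of 14.7 to 22.2 CPM (0.61 ± 0.10, adjusted p = 0.00314). The chain elongases ELOVL2 (0.30 ± 0.07, adjusted p = 0.0102) and ELOVL6 (0.28 ± 0.07, adjusted p = 0.0157) rose less. With median-of-ratios scaling 2 of 13 genes were called higher, FASN and ACLY, where 6.38% of all genes were higher. The count was 2 without replicate 4 of day 3 and 3 without replicate 7 of day 6.

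**Figure D4:**
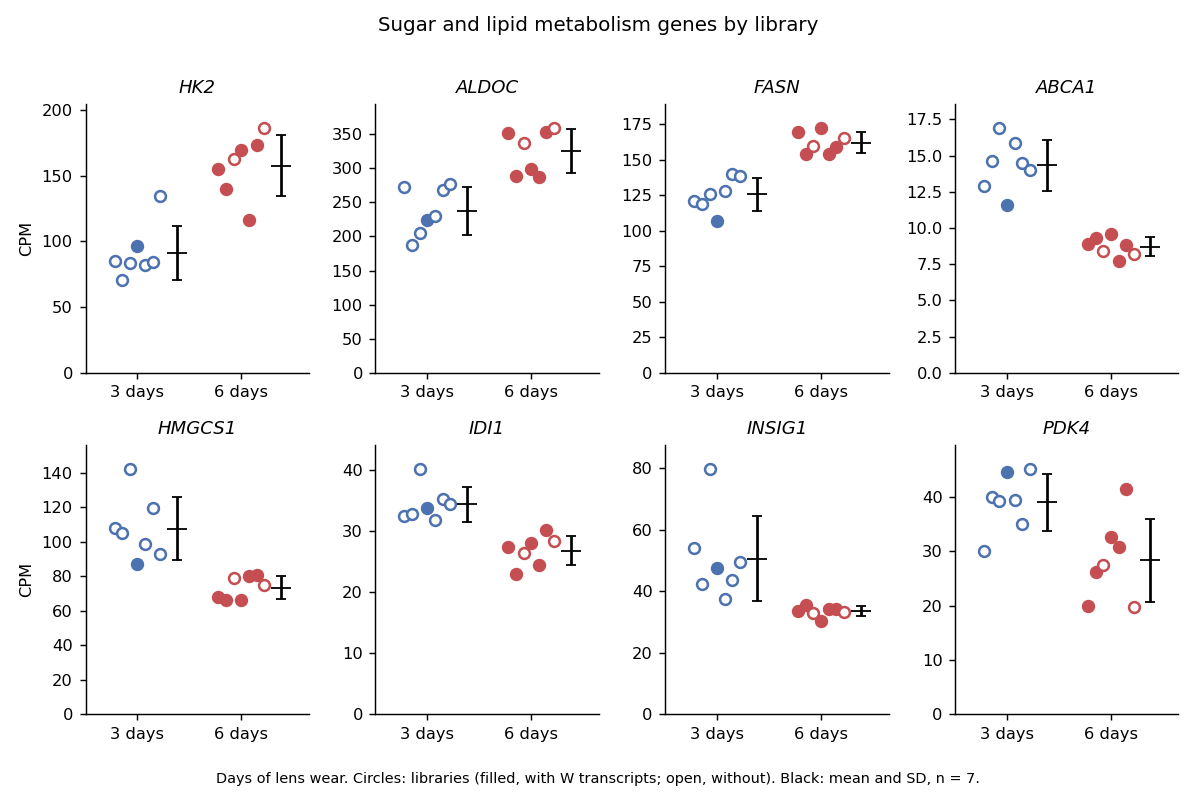
CPM of 8 genes of sugar and lipid metabolism in each library after 3 and 6 days of lens wear, drawn as circles (filled, with W transcripts), with the mean and SD in black. HK2, ALDOC and FASN are higher on day 6, ABCA1, HMGCS1, IDI1 and INSIG1 are lower without overlap, and PDK4 is lower with overlap.

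Machinery for protein turnover and RNA handling rose in part, where 14.9% of all genes were higher and 2.10% lower. Of 35 proteasome genes 12 were higher and 0 lower, with a median of 0.17, led by PSMD2, a base subunit of the regulatory cap, which went from a median of 5.97 to 9.73 CPM without overlap (0.75 ± 0.09, adjusted p = 0.000824). PSMD1 (0.32 ± 0.07), PSMA3 (0.31 ± 0.07) and PSMC1 (0.26 ± 0.06) also rose without overlap, PSMA3 not without replicate 4 of day 3 and PSMC1 not without replicate 3 or 7 of day 6. With median-of-ratios scaling 3 of 35 proteasome genes were higher and 1 lower, where 6.38% of all genes were higher and 5.44% lower. The proteasome count was 4 higher without replicate 4 of day 3 and 3 without replicate 7 of day 6. Of 51 splicing regulators 14 were higher and 1 lower. RSRP1 measured 40.0, 56.3 and 100 CPM on day 3 and 118, 165 and 197 CPM on day 6 (1.15 ± 0.21, adjusted p = 0.00398). RBM5 (0.63 ± 0.10, adjusted p = 0.00222), SRSF3 (0.44 ± 0.07, adjusted p = 0.00221) and the cold-inducible RNA-binding protein CIRBP (0.40 ± 0.08, adjusted p = 0.00648) rose without overlap. NOVA1, a neuronal splicing factor, was the member that fell (-0.19 ± 0.05, adjusted p = 0.0223). Splicing counts were 7 and 1 with median-of-ratios scaling and 27 and 0 without the W covariate, where 20.3% of all genes were higher. They were 8 and 0 without replicate 4 of day 3 and 5 and 0 without replicate 7 of day 6, and the call of NOVA1 was also lost without replicate 3 of day 6 and without the W covariate (-0.11, adjusted p = 0.093).

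Genes of protein synthesis and respiration gave shares near or below the background in the fit with the W covariate. Ribosomal proteins gave 6 of 72 higher (8.33%) and 0 lower with a median of 0.08, below the 14.9% of all genes. RPS19 had the largest change among the well expressed called genes, from 4.99, 14.5 and 20.1 CPM to 14.1, 23.7 and 34.1 CPM, with overlapping groups (1.22 ± 0.30, adjusted p = 0.0146, and up to 0.085 without replicate 4 of day 3 or replicate 7 of day 6). It lies on a scaffold not assigned to a chromosome. RPLP0 (0.32 ± 0.06, adjusted p = 0.00547) rose without overlap and RPL3 with overlap (0.36 ± 0.08, adjusted p = 0.00796). Translation factors and tRNA synthetases gave 8 of 42 higher (19.0%), among them EIF4G1 (0.66 ± 0.10, adjusted p = 0.00218), EIF1 (0.67 ± 0.11, adjusted p = 0.00314) and EIF3A (0.32 ± 0.06, adjusted p = 0.00516), all without overlap. The median of this list was 0.17, against 0.09 for all genes. At an unadjusted p under 0.05 in limma, 20 of its genes were higher and 0 lower. The ribosomal count was 1 without replicate 4 of day 3, 11 without replicate 6 of day 3 and 3 without replicate 7 of day 6, and 3 with median-of-ratios scaling. The translation count was 4, 14 and 3 without those libraries, 5 without replicate 3 of day 6 and 3 with median-of-ratios scaling. Without the W covariate it was 15 of 42, where 20.3% of all genes were higher. The respiratory chain gave 11 of 65 higher (16.9%) on the deposited scale, with a median of 0.17. It gave 1 higher and 1 lower with median-of-ratios scaling. ATP5D, a subunit of ATP synthase (0.37 ± 0.10, adjusted p = 0.0179), and UQCRC1, a core subunit of the cytochrome bc1 complex (0.32 ± 0.09, adjusted p = 0.0232), were among the calls. The respiratory count was 1 without replicate 4 of day 3 or replicate 7 of day 6, 20 without replicate 6 of day 3, and 4 to 7 without replicates 2, 3, 5 and 7 of day 3 or 1, 4 and 6 of day 6. Without the W covariate it was 6.

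Few neuronal markers of the inner retina passed, where 14.9% of all genes were higher and 2.10% lower. Ganglion cell genes gave 0 calls among 13 in limma, with 5 higher at an unadjusted p under 0.05. Their median change was 0.19, against 0.09 for all genes. They gave 4 without replicate 3 of day 6, 2 without replicate 6 of day 3 and 1 without replicate 7 of day 3. Amacrine cells gave 1 of 15 higher, the acetylcholine enzyme CHAT (0.40 ± 0.10, adjusted p = 0.0177), with a list median of -0.02. CHAT did not pass without the W covariate (0.21, adjusted p = 0.18) or without replicate 4 of day 3 or 7 of day 6, and with median-of-ratios scaling 5 amacrine genes were lower. Of the 7 horizontal cell genes CALB1, calbindin, which in chick is also a cone protein, rose from 22.9, 32.4 and 38.8 CPM to 37.1, 43.8 and 49.4 CPM (0.63 ± 0.10, adjusted p = 0.00221). Of 12 tested bipolar cell genes 1 was higher and 1 lower, and 0 were higher with median-of-ratios scaling or without replicates 2, 3, 4 or 5 of day 3 or 1, 3, 4, 5, 6 or 7 of day 6. VSX1, a factor of cone bipolar cells, fell from a median of 76.5 to 58.0 CPM (-0.38 ± 0.11, adjusted p = 0.0278). The call of VSX1 was lost without replicate 4 of day 3 or replicates 3 or 7 of day 6. Müller glia gave 3 of 11 higher, 27.3% against 14.9% of all genes. These were CA2, carbonic anhydrase (0.42 ± 0.09, adjusted p = 0.0064), SOX2 (0.30 ± 0.07, adjusted p = 0.0145) and GFAP, a marker of glial reactivity (0.62 ± 0.18, adjusted p = 0.0284). GFAP ranged from 2.74 to 6.24 CPM on day 3 and from 3.65 to 8.02 CPM on day 6, so its groups overlapped. CA2 is on the red blood cell list as well. At an unadjusted p under 0.05 in limma, 4 glial genes were higher and 2 lower. SLC1A3, another of the list, was not called, at 243 to 329 CPM on day 3 and 224 to 314 CPM on day 6. The glial count was 0 without replicate 7 of day 6, and 1 higher and 2 lower with median-of-ratios scaling. Without the W covariate it was 2 higher, where 20.3% of all genes were higher. In tissue samples like these, fewer cells of a type and less RNA per cell cannot be told apart.

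Of 24 tested genes of signals tied to eye growth 3 were higher (12.5%, near the 14.9% of all genes) and 0 lower, with a median of 0.01. RBP4, which carries retinol, stood at 51, 70.0 and 95.2 CPM on day 3 and 95.7, 128 and 156 CPM on day 6, without overlap (0.72 ± 0.18, adjusted p = 0.0168, and 0.20 without replicate 4 of day 3). The 1-day libraries, which took no part in the test, lay at 144 to 268 CPM. TGFB3 (0.38 ± 0.09, adjusted p = 0.00955) and IGF1R (0.22 ± 0.06, adjusted p = 0.0271) were the other calls, and the count was 0 without replicate 4 of day 3 and 1 without replicate 7 of day 6. MICAL2, an actin regulator outside that list, rose by 0.43 ± 0.14 (adjusted p = 0.0448), a call lost without 10 of the 14 libraries, each in turn. EGR1, known in chick amacrine cells as ZENK and tied to the sign of defocus, ranged from 1.54 to 7.47 CPM on day 3 and from 2.55 to 7.05 CPM on day 6 and did not pass (0.23 ± 0.30, adjusted p = 0.638). None of the 12 tested immediate early genes passed in limma, 3 were higher and 0 lower at an unadjusted p under 0.05, and 2 passed without the W covariate. VIP and TH, markers of amacrine types studied in myopia, had means under 1 CPM and were not tested. The receptor genes DRD4, for dopamine (0.58 ± 0.13, adjusted p = 0.00816), and HTR1B, for serotonin (0.34 ± 0.09, adjusted p = 0.0247), rose, and HTR2C fell (-0.26 ± 0.07, adjusted p = 0.0272). DRD4 and HTR1B lost their calls without replicate 4 of day 3, HTR1B and HTR2C without replicate 7 of day 6, and HTR2C without replicate 3 of day 6. Their list gave 4 of 17 higher and 1 lower, against 14.9% and 2.10% of all genes. Its median change was 0.09, as for all genes. It gave 1 to 3 higher without any 1 library other than replicates 6 and 7 of day 3. Lower calls were 0 without replicate 3 or 7 of day 6. Median-of-ratios scaling gave 1 of 17 higher, near the 6.38% of all genes, and 2 lower, against 5.44%.

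Clock genes moved in both directions, 6 of 23 higher and 2 lower against 14.9% and 2.10% of all genes, and the sources used here do not give the hour of collection. PER2, a light-induced clock repressor (chromosome 9, 5654602 to 5695660), measured 109, 132 and 139 CPM on day 3 and 154, 178 and 194 CPM on day 6 (0.45 ± 0.08, adjusted p = 0.00404). CRY2 (0.30 ± 0.06, adjusted p = 0.00523), CSNK1E (0.49 ± 0.09, adjusted p = 0.00386) and CLOCK (0.22 ± 0.06, adjusted p = 0.0254) also rose without overlap. ARNTL2 (-0.38 ± 0.09, adjusted p = 0.0154) and FBXL21 (-0.25 ± 0.07, adjusted p = 0.0232) fell, and PER3 did not pass (-0.21 ± 0.10, adjusted p = 0.145). Counts were 3 higher and 3 lower with median-of-ratios scaling, 10 higher without replicate 6 of day 3 and 3 higher without replicate 7 of day 6. Lower calls numbered 0 without replicate 4 of day 3, 3 without replicate 6 of day 3, 1 without replicate 3 of day 6 and 1 without replicate 7 of day 6. Of the hormone-responsive genes SGK1 rose from a median of 32.1 to 50.9 CPM (0.85 ± 0.14, adjusted p = 0.00314). KLF9, which thyroid hormone and glucocorticoids induce (chromosome Z, 35029425 to 35045192), fell from 67.1, 80.4 and 92.3 CPM to 48.7, 57.2 and 71.6 CPM (-0.33 ± 0.08, adjusted p = 0.0108), a call that was lost without replicate 3 of day 6 (adjusted p = 0.055). Its lowest 3-day value was in the library with W transcripts, and its 2 highest 6-day values were in the libraries without them. Of 13 hormone-responsive genes 2 were higher, SGK1 and FKBP4, a share near the 14.9% of all genes, and 1 was lower. With median-of-ratios scaling 2 were higher and 3 lower, and lower calls were 0 without replicate 3 of day 6 and 2 without replicate 6 of day 6.

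Matrix genes gave 8 of 30 higher and 2 lower, against 14.9% and 2.10% of all genes. CLEC3A, a small matrix lectin, fell from 30.4, 35.7 and 39.7 CPM to 18.6, 23.6 and 32.6 CPM (-0.71 ± 0.12, adjusted p = 0.00314) and kept passing without each library in turn. COL6A1, a chain of collagen type VI, fell without overlap from a median of 5.03 to 3.80 CPM (-0.33 ± 0.08, adjusted p = 0.0162). LAMC1, a laminin chain of basement membranes (0.63 ± 0.12, adjusted p = 0.00504), HAPLN1, a link protein of hyaluronan (0.34 ± 0.08, adjusted p = 0.00989), and TIMP2, a protease inhibitor (0.58 ± 0.14, adjusted p = 0.0115), rose. Higher calls numbered 3 without replicate 4 of day 3 and 4 without replicate 7 of day 6, and lower calls 1 without the latter, where COL6A1 was lost (adjusted p = 0.10). HAPLN1 and TIMP2 lost their calls without replicate 4 of day 3.

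Among called genes with a mean log2 level at or above the median of all genes, the 12 largest rises were RPS19, OPN1LW, RSRP1, ARHGEF11 (1.14 ± 0.21), LARP1 (1.07 ± 0.21), DNAJA1, MEF2D (1.00 ± 0.18), HSPA8, HSPH1, SDK2 (0.98 ± 0.16), PACSIN1 (0.95 ± 0.15) and HSPA5. MEF2D, a transcription factor needed for photoreceptors in mice, went from 9.49, 11.3 and 18.7 CPM to 15.3, 23.0 and 32.6 CPM, and SDK2 is an adhesion protein of retinal synapses. The 12 largest falls were ATP6V0D2, a subunit of the vacuolar proton pump (-0.76 ± 0.18, adjusted p = 0.0115), CLEC3A, PDK4, ABCA1, ANKRD31 (-0.57 ± 0.12), INSIG1, PDGFRL (-0.54 ± 0.16), AGPAT9L (-0.44 ± 0.13), LYRM9 (-0.44 ± 0.08), HMGCS1, NSUN3 (-0.41 ± 0.10) and CNTNAP4 (-0.41 ± 0.08). Among these, ANKRD31 (medians of 35.0 and 21.3 CPM), LYRM9 (25.9 and 20.3 CPM) and PDGFRL (11.4 and 8.55 CPM) did not overlap between days. The call of ANKRD31 was lost without replicate 7 of day 6 (adjusted p = 0.056), and those of PDGFRL, AGPAT9L and ATP6V0D2 without either of replicate 4 of day 3 and replicate 7 of day 6. LYRM9 and CNTNAP4 passed without each library in turn.

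**Figure D5:**
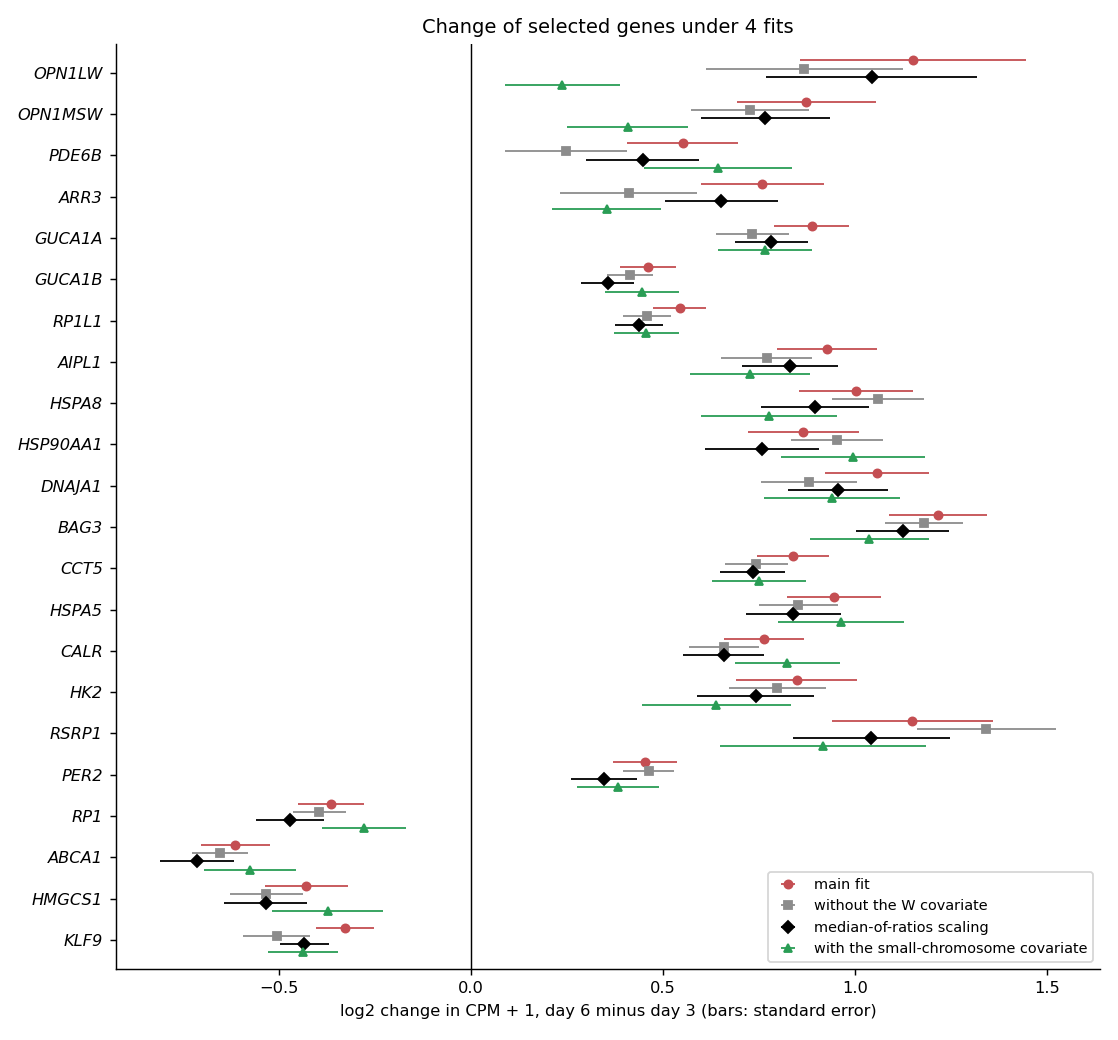
Log2 change from day 3 to day 6 with its standard error for 22 genes in 4 fits: the fit with the W covariate, the fit without it, median-of-ratios scaling, and the small-chromosome level as a further covariate. OPN1LW drops from 1.15 to 0.24 in the last fit, whereas BAG3, HSPA5 and GUCA1A stay at 1.04, 0.96 and 0.77, and ABCA1 stays at -0.58.

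Chromosome position moved with these changes. The share of genes called higher rose from 11.6% on chromosomes 1 to 5 through 14.2% on 6 to 10 and 17.8% on 11 to 20 to 23.8% on 21 to 28, and was 31.5% on other scaffolds. Median changes were 0.07, 0.08, 0.12, 0.18 and 0.27. OPN1LW, RPS19 and CALR lie on such scaffolds and GUCA1A, GUCA1B, OPN1MSW and GNAT2 on chromosome 26, and the level of small chromosomes moves with them. Within the libraries without W transcripts, 6 of day 3 and 2 of day 6, the log2 change was 1.13 for OPN1LW, 0.84 for GUCA1A, 1.08 for HSPA8, 0.81 for HSPA5 and -0.76 for ABCA1. Within those with W transcripts, 1 of day 3 and 5 of day 6, the changes were 1.19, 0.98, 0.86, 1.19 and -0.35. These genes were called in the fit to the same libraries, and the second set has a single 3-day library. In the set without W transcripts 65 genes were called higher (0.586%) and 21 lower (0.189%). The change of 1 gene, STAB1 (difference of 0.975 on the log2 scale), differed between the sets by the interaction term (0.00902% of genes, and 539 genes or 4.86% at an unadjusted p under 0.05). With W transcripts present 416 genes differed (3.75%). On chromosome Z 349 of 558 genes were lower with W transcripts, and 56 were higher and 17 lower on day 6 with the covariate against 19 and 108 without it. The CPM ranges given for the Z genes DNAJA1, HMGCS1, ABCA1 and KLF9 are not adjusted for W transcripts.

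Lists of other cell types differed in level. Of 18 microglia and leukocyte markers 15 were in the table and 4 had a mean of 1 CPM or more, with 0 calls in limma (1 higher at an unadjusted p under 0.05) and a summed level of 9.52 to 13.4 CPM on day 3 and 10.9 to 15.5 CPM on day 6. The lens list gave 0 calls among 5 in limma (1 higher at an unadjusted p under 0.05), at 18.8 to 26.4 and 21.6 to 25.9 CPM. CRYAA, a defining lens crystallin, had a mean of 0.00375 CPM on day 3 and 0.0101 CPM on day 6. CRYBA4, another crystallin of the list, ranged from 10.2 to 18.0 CPM on day 3 and from 14.6 to 17.1 CPM on day 6. BFSP1 and CRYGN of the list were also above 1 CPM in every library. Pigment epithelium markers gave 2 of 5 higher, at a sum of 57.9 to 67.2 CPM on day 3 and 63.5 to 77.2 CPM on day 6, and 9 of the 14 markers were under 1 CPM. None of the 5 passed with median-of-ratios scaling, with the small-chromosome covariate, or without replicate 4 of day 3 or replicate 3 of day 6, and 1 passed without replicates 1, 2, 3 or 7 of day 3 or 1, 6 or 7 of day 6. Of 5 tested oligodendrocyte genes 1 was higher and 0 lower, and 0 passed without the W covariate, without replicate 4 of day 3 or without replicate 7 of day 6. Their sum was above those of the microglia, lens, pigment epithelium and muscle lists, at 125 to 231 CPM on day 3 and 151 to 255 CPM on day 6, and MBP, myelin basic protein, ranged from 90.3 to 169 CPM on day 3 and from 107 to 198 CPM on day 6. Of the red blood cell list only CA2, a glial gene as well, was tested, and the muscle and fibroblast list gave 0 calls among 1 in limma, with a sum of 8.58 to 11.98 CPM on day 3 and 7.70 to 11.8 CPM on day 6. The part of these cells in the results was not tested.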

How the data were processed

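Retinal RNA of 21 libraries, 7 for each of 1, 3 and 6 days of lens wear, was sequenced from total RNA after depletion of ribosomal RNA with a stranded kit, per the labels' protocols. The deposited values are CPM made by the authors. STAR, Partek and the build GRCg6a are named, per the submitters' processing notes, with no versions or settings, which the sources used here do not state. All deposited CPM carry an offset of 0.0001, which was subtracted. Of the values under 20 estimated reads 94.4 to 95.1% per library of days 3 and 6 lay within 0.1 of a whole number of reads, no count test was run, and read totals are estimates from the commonest smallest value of each library. Coordinates are as listed in the deposited table, whose first base may be numbered 0 or 1, which no source used here states.

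Groups come from the sample titles. The 14 libraries of days 3 and 6 entered 1 limma 3.58.1 fit in R 4.3.3 (lmFit, then eBayes, trend and robust off, 11 residual degrees of freedom) on log2(CPM + 1), for genes averaging 1 CPM or more (99.5% of the summed CPM), with presence of HINTW above 10 CPM as covariate. A log2 change on this scale understates the change of low genes. P-values were adjusted by Benjamini-Hochberg over 11083 genes, at a threshold of 0.05. Error terms after ± are standard errors of log2 changes. Alternatives were the fit without the covariate, all 21 libraries, libraries without W transcripts, 2 other scalings, a pseudocount of 0.1, no filter and a filter of 5 CPM, trend and robust on, the code number set or code letter of the titles as covariates, and leaving out each library. A further 3 were chosen after seeing the data: libraries with W transcripts only, the small-chromosome level as covariate, and median-of-ratios scaling without the W covariate.

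The members, the 38 gene lists and the rule for naming genes were chosen with earlier results of these data known. The rule takes the 12 risen and 12 fallen genes of largest change among called genes with a symbol and a mean log2 level of 3.43 or more, the 4 members of lowest adjusted p in each list, genes fixed by name, and members of lists described. Some genes that the rule names are not reported here. Of 1062 list entries 5 were matched by another symbol, and 907 different genes were in the table and 760 tested. Simulated data held 50 changed genes at each fold among 11083. The procedure recovered 40, 90, 100 and 100% at folds of 1.25, 1.5, 2 and 3. It called 6 unchanged genes and gave 0 wrong directions. The simulated noise was independent for each gene and library, with no shift shared by the genes of a library. The real libraries differ by such a shift in the small-chromosome level, so these rates need not hold for them. Tables and figures used Python 3.11.15, numpy 2.4.6, pandas 2.3.3, scipy 1.17.1 and matplotlib 3.10.9. No sequences were used here.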

Additional observations from a re-analysis of the deposited data

Results flagged for a closer look

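A library that stood far from the other 6 of its day, by the gap to the nearest library over the range of all 7, was found in 21 of 292 groups, from 146 genes on 2 days. Chance alone flags about 1 in 20 groups.

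On day 6, replicate 7 was the highest library for OPN1MSW at 128.1 CPM (next 84.89), ATF4 at 158.1 CPM (next 135.8), EIF1 at 15.37 CPM (next 11.74), CA2 at 465.3 CPM (next 372.1) and CHAT at 7.562 CPM (next 5.764). Replicate 3 was the highest for PDE6B at 77.86 CPM (next 58.58) and CALR at 85.35 CPM (next 73.32). Replicate 4 was the highest for PFKFB3 at 102.2 CPM (next 85.68), and replicate 6 for VSX1 at 79.09 CPM (next 60.32).

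On day 3, replicate 6 was the highest library for GNAT1 at 26.43 CPM (next 18.07), MAK at 104.3 CPM (next 87.66), RXRG at 7.912 CPM (next 4.884) and HSPE1 at 9.403 CPM (next 7.479). Replicate 3 was the highest for IDI1 at 40.05 CPM (next 35.21) and INSIG1 at 79.63 CPM (next 54.04). Replicate 5 was the highest for RP1 at 236.2 CPM (next 197.6) and PDGFRL at 19.1 CPM (next 12.91). UNC119 stood at 414.9 CPM in replicate 1 (next 373.5), HK2 at 134.8 CPM in replicate 7 (next 96.87) and PER3 at 50.67 CPM in replicate 2 (next 41.26). PDE6B was low in replicate 4, the library with W transcripts, at 24.59 CPM against 49.04 CPM or more.

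The change of STAB1, a scavenger receptor gene, from day 3 to day 6 differed between libraries with and without W transcripts by 0.975 on the log2 scale (interaction in limma, adjusted p = 0.046), and it rests on the single 3-day library with W transcripts.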

How the results depend on the processing

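Higher and lower calls numbered 1648 and 233. They were 2249 and 482 without the W covariate, 1994 and 370 with all 21 libraries, 65 and 21 in libraries without W transcripts, 707 and 603 with median-of-ratios scaling, and 813 and 479 rescaled to the sum of listed genes. In the 3 fits chosen after seeing the data they were 8 and 1 in libraries with W transcripts, 74 and 15 with the small-chromosome covariate, and 1016 and 1019 with median-of-ratios scaling and no W covariate. The pseudocount of 0.1, both filters, trend and robust, and both code covariates gave 1465 to 1757 higher and 190 to 267 lower. Leaving out each library gave 523 to 2182 higher and 71 to 288 lower.

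Over all lists, 180 of the 760 tested members were higher and 16 lower, where 14.9% and 2.10% of all genes were. In the order above, lower members were 31, 26, 2, 39 and 31, then 0, 2 and 58. Higher members were 18 without W transcripts, 98 and 108 under the rescalings, and 4, 21 and 109 in the added fits. Leaving out each library gave 81 to 227 higher and 5 to 20 lower.

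No named gene turned significant in the opposite direction. Of the 1881 calls 18 changed sign without the W covariate, 28 with median-of-ratios scaling and no W covariate, and 1 each in the other 2 added fits. No paired analysis was possible because the labels give the groups no shared replicate numbers. The causes of these changes were not tested, beyond the fewer samples in the fits that leave libraries out. The 1 library with W transcripts on day 3 and the 2 without on day 6 limit how well day and W effects can be separated, and their removal widens the errors.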

Other observations

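Potassium channels, which set the resting potential and shape the light response, gave 5 of 44 tested genes higher (11.4%, below the 14.9% of all genes) and 0 lower. KCNJ12, an inward rectifier, went from 20.4, 23.4 and 30.1 CPM to 29.7, 34.8 and 38.2 CPM (lowest, median and highest), a log2 change of 0.55 ± 0.09 (limma, adjusted p = 0.00314). It passed without each library in turn and with median-of-ratios scaling. Without replicate 7 of day 6 the list gave 2 higher and 1 lower.

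Hypoxia-responsive genes gave 5 of 20 higher and 1 lower, against 14.9% and 2.10% of all genes. HK2 and SLC2A1 of them are also on the glycolysis list. NDRG1 fell from a median of 141 to 121 CPM (-0.28 ± 0.07, adjusted p = 0.0209). The counts were 1 and 0 without replicate 4 of day 3 or replicate 7 of day 6, 4 and 0 without replicate 3 of day 6, and 2 and 1 with median-of-ratios scaling. Of the endothelial markers 10 of the 14 in the table were under 1 CPM, and ESAM was the single call among 4 tested, at a summed level of 45.8 to 62.6 CPM on day 3 and 52.6 to 71.9 CPM on day 6. That call (0.45 ± 0.14, adjusted p = 0.0449) was lost without 10 of the 14 libraries, each in turn.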
